A study of Homo sapiens with 6 samples.

Results

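A set of 10 genes of the neuronal cytoskeleton and of neuronal adhesion was followed in HEK293T cells with and without added PRMT1. They were chosen by name, as genes described as expressed in HEK293 lines, and earlier results of these data were known at the time. They are the neurofilament subunits NEFL, NEFM and NEFH, the neuronal filament protein INA, the related filament protein VIM, the microtubule proteins STMN2, MAP2 and DCX, the adhesion molecule NCAM1 and the growth cone protein GAP43. All 10 were found by symbol among the 57500 gene identifiers of the table, and 7 reached the level required for testing, 1 TPM or more in 3 or more of the 6 libraries. TPM is a level per length of a gene, scaled to the same total in each library, so that levels of different genes can be compared roughly. The values fitted the merged length of all annotated exons, 5158 bases for VIM with 10 transcripts and 3231 for INA with 1. A gene with many transcripts can be understated by this, so the order, ranks and ratios between genes are approximate. HEK293T is an established human embryonic kidney line that carries the SV40 large T antigen. PRMT1 is an enzyme that methylates arginine residues of proteins. RNA was selected by its polyA tail. The 3 control libraries come from HEK293T cells labelled wild type in genotype and vector control in treatment, and carry mock in their titles. The other 3 libraries are from HEK293T cells transfected, with the PolyJet reagent, with a pcDNA3 plasmid that carries PRMT1. The labels give no time after transfection, do not say what plasmid the control cells received, and do not say that the replicates came from separate cultures. The p-values therefore rest on a spread between libraries that may be technical.

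Neurofilaments are the intermediate filaments of neurons. NEFL forms the core of the filament, NEFM and NEFH join it and carry long tails that project from it and are heavily phosphorylated in axons, and INA assembles with them in many central neurons. VIM makes the intermediate filaments of mesenchymal cells, of many cultured lines and of neural precursors, and is not a marker of neurons. STMN2 binds tubulin and regulates microtubule growth in axons, DCX stabilises microtubules in migrating young neurons, and MAP2 binds microtubules in dendrites. NCAM1 is a cell adhesion molecule of neurons and of the developing kidney, and GAP43 is a membrane protein of growth cones. HEK293 lines came from fetal kidney cultures transformed with adenovirus DNA, and neurofilament expression in them is well known.

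The deposited values stand for 18196812 to 23163986 reads in a library. PRMT1 itself was at 381 ± 14.7 TPM (SD, n = 3) in the control libraries and at 73158 ± 11091 TPM (SD, n = 3) in the PRMT1 libraries, where it took 6.29 to 8.49% of all TPM, against 0.037 to 0.040% in the controls. TPM adds up to the same total in each library, so this share lowers every other gene's TPM. Groups were compared with limma on log2(TPM + 1) over all 15341 tested genes, with Benjamini-Hochberg adjustment and a threshold of 0.05 on the adjusted p. Of these genes, 40.3% were called higher and 8.64% lower in the PRMT1 libraries, and the median log2 fold change was 0.30. Control 3 and PRMT1 library 2 lay farther from their groups than the other libraries did (root mean square distance 0.388 and 0.362 on the log2 scale, against 0.293 to 0.327).

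In the control libraries VIM, NEFM and NEFL were abundant transcripts. VIM was at 653 ± 16.3 TPM (SD, n = 3), 241st among all genes, NEFM at 536 ± 69.6 TPM, 283rd, and NEFL at 218 ± 23.2 TPM, 654th. Together they made up 97.4% of the summed TPM of the 10 genes. NCAM1, STMN2, INA and GAP43 followed at means of 14.9, 10.2, 8.32 and 4.11 TPM. DCX, MAP2 and NEFH were below 0.4 TPM in every library. For these 3 genes the data go against the description of the set as expressed in HEK293T, and for the other 7 they do not. Ranges of neighbours in this order overlapped in the controls for MAP2 and NEFH only, and in the PRMT1 libraries for DCX with NEFH and for NEFH with MAP2. INA and STMN2 changed places between the groups: STMN2 was above INA in each control library and below it in each PRMT1 library.

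**Figure D1:**
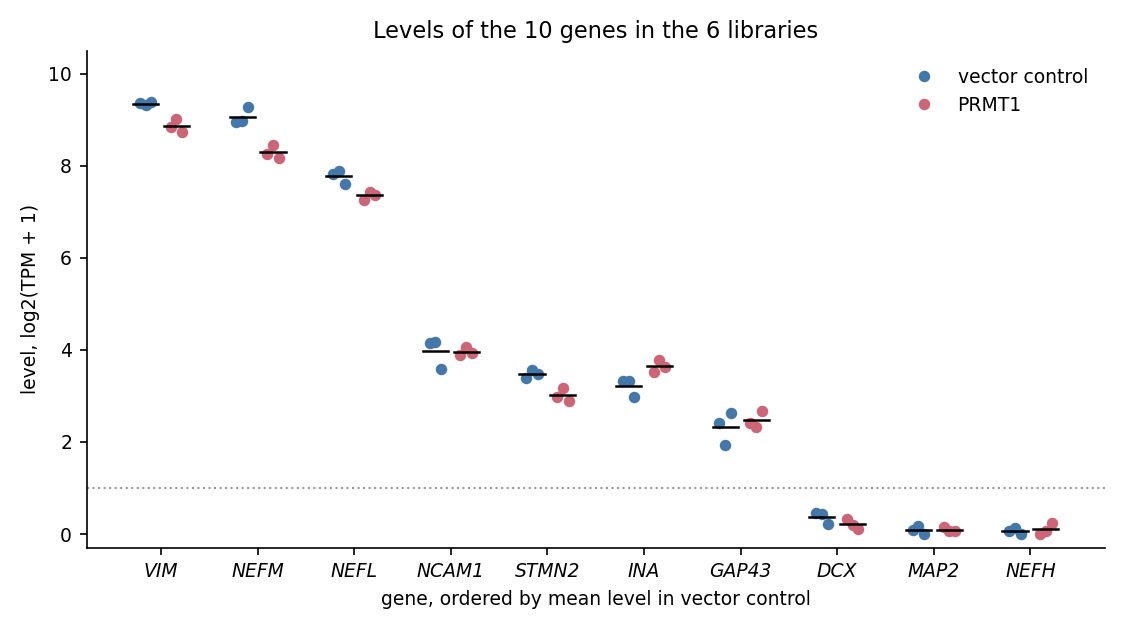
Level of each of the 10 genes on the log2(TPM + 1) scale (vertical axis) by gene (horizontal axis), with 1 point per library, 3 vector control and 3 PRMT1 libraries, and a bar at each group mean; the dotted line marks 1 TPM. VIM, NEFM, NEFL and STMN2 are lower in all 3 PRMT1 libraries than in any control library, INA is higher in all 3, and DCX, MAP2 and NEFH lie near 0.

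The filament genes NEFM and NEFL lie close to each other on chromosome 8 (GRCh38), NEFM on the plus strand at chr8:24913012-24919098 and NEFL on the minus strand at chr8:24950955-24957110, with 31.9 kb between them. Both fell in the PRMT1 libraries. NEFM stood at 492.0, 499.1 and 615.9 TPM in control libraries 1 to 3, whereas PRMT1 libraries 1 to 3 held 305.4, 347.6 and 287.7 TPM. Every PRMT1 library was below every control library, and control 3 was the highest. The mean fell by 41.5%, from 536 ± 69.6 to 314 ± 30.8 TPM (SD, n = 3 each), which is -0.77 on the log2 scale (SE 0.11; adjusted p = 0.0012, limma), from 42343 reads in the controls and 25753 in the PRMT1 libraries. Of all tested genes, 1.84% had a lower log2 fold change. As the RNA is from whole cultures, fewer cells with a transcript and less of it per cell cannot be told apart.

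NEFL stood at 225.9, 237.0 and 192.5 TPM in the controls, whereas the PRMT1 libraries held 153.1, 172.7 and 164.6 TPM. The groups did not overlap, and here control 3 was the lowest of the controls. The mean fell by 25.2%, from 218 ± 23.2 to 163 ± 9.83 TPM (SD, n = 3 each), which is -0.41 on the log2 scale (SE 0.093; adjusted p = 0.0085, limma). Its reads numbered 17121 in the controls and 13218 in the PRMT1 libraries.

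VIM, at chr10:17228259-17237593 on the plus strand, fell as well. The controls held 656.0, 634.8 and 666.8 TPM and the PRMT1 libraries 456.6, 515.5 and 426.6 TPM, all of them lower. The mean fell by 28.6%, from 653 ± 16.3 to 466 ± 45.2 TPM (SD, n = 3 each), which is -0.49 on the log2 scale (SE 0.078; adjusted p = 0.0020, limma). Its rank among all genes went from 241 to 280. NEFM, NEFL and VIM passed the threshold under each of the 18 alternative settings tried.

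INA, at chr10:103277163-103290351 on the plus strand, moved the other way. The controls held 8.996, 9.087 and 6.866 TPM and the PRMT1 libraries 10.6, 12.7 and 11.3 TPM. All 3 PRMT1 libraries were above all controls, and control 3 was the lowest. The mean rose by 38.8%, from 8.32 ± 1.26 to 11.5 ± 1.10 TPM (SD, n = 3 each), which is 0.43 on the log2 scale (SE 0.13; adjusted p = 0.0296, limma), from 487 and 697 reads. This is close to the median of all tested genes, 0.30, and 59.7% of them had a lower log2 fold change. The call was lost under 7 of the 18 alternatives, among them leaving out control 3 (0.32, adjusted p = 0.0537), PRMT1 library 2 (0.37, adjusted p = 0.0828) or PRMT1 library 3 (0.44, adjusted p = 0.0664), over a range of adjusted p from 0.0106 to 0.975.

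NEFH, at chr22:29480230-29491390 on the plus strand, was near the limit of detection. The table lists it at 0.042, 0.089 and 0 TPM for the controls, and for the PRMT1 libraries at 0, 0.041 and 0.185 TPM. These values stand for 1, 2 and 0 reads and for 0, 1 and 4 reads, so no difference was detectable at this depth. Of the 3 neurofilament subunits, HEK293T cells thus held transcripts of the light and the medium one at high levels and next to none of the heavy one in both groups.

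VIM and INA are on the same chromosome and encode filament proteins, and differed in direction in TPM as deposited. Under other scalings, given further below, INA was not called (0.11 with median-of-ratios scaling, -0.0042 with quantile normalization and 0.0088 with GC centring). The 250 bases before a start site of each gene are shown. They come from RefSeq promoter windows on GRCh38.p14, which matched 5 of the 10 genes (VIM, INA, GAP43, MAP2 and DCX). Both are written 5′ to 3′ on the plus strand, with each GGGCGG (GC box) or its reverse complement in capitals; the first is chr10:17227991-17228240 and the second chr10:103276888-103277137.
VIM: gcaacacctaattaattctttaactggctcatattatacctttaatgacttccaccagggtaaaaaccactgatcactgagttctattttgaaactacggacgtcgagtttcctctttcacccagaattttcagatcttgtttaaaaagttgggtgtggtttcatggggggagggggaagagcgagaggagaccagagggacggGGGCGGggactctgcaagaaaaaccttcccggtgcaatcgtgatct
INA: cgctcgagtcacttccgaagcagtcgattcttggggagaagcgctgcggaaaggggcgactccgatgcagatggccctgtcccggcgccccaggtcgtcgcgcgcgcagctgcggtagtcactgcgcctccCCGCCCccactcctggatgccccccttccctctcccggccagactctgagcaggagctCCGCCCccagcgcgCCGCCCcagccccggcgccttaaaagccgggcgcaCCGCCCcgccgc
The INA window held 72.8% G and C, 30 CpG dinucleotides and 4 GC boxes, and the VIM window 46.0%, 8 CpG and 1 GC box. Only 1 window was found for VIM, and it ends before the first annotated base of the gene. VIM has 10 transcripts in GENCODE 29, and windows of other VIM start sites were not examined, so these values describe the window shown only. Over all 35116 windows of this length the medians were 58.0% and 11 CpG, and 42.6% held GGGCGG on either strand. The TATA box, searched as TATAAA, was found in 10.7% of all windows and the sequence CCAAT in 32.0%. The site of the AP-1 factors, searched as TGANTCA, was found in 6.57%. The start of the element that binds the repressor REST, searched as TTCAGCACC, was found in 0.288%. Each was searched on both strands, and the 2 windows shown held none of these 4. The motifs were counted separately, and none of the marked GC boxes overlaps another motif searched.

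The balance between the filament transcripts differed between the groups. INA made up 1.24, 1.22 and 0.842% of the summed TPM of NEFL, NEFM and INA in the controls, against 2.25, 2.39 and 2.45% in the PRMT1 libraries. The mean share went from 1.10 ± 0.22 to 2.36 ± 0.10% (SD, n = 3 each), and the groups did not overlap. In an exact two-sided permutation test 3 libraries against 3 cannot go below p = 0.1, which this ratio and the ratios below reached. The ratio of INA to NEFL, in which a factor common to a library cancels, was 0.0398, 0.0383 and 0.0357 in the controls, against 0.0689, 0.0737 and 0.0689 in the PRMT1 libraries, 1.86 times as high on average. A shift that depends on the level of a gene does not cancel in this ratio. Among genes at the level of INA the median log2 fold change was 0.42, and among those at the level of NEFL -0.12. After quantile normalization INA was at -0.0042 and NEFL at -0.35.

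The ratio of NEFM to NEFL was 2.18, 2.11 and 3.20 in the controls and 1.99, 2.01 and 1.75 in the PRMT1 libraries, with means of 2.49 ± 0.61 and 1.92 ± 0.15 (SD, n = 3 each). Controls 1 and 2 lay just above the highest PRMT1 library, and control 3 set most of the difference of the means, which was -0.58 with it and -0.22 without it. VIM relative to the sum of NEFL and NEFM was 0.914, 0.862 and 0.825 in the controls and 0.996, 0.991 and 0.943 in the PRMT1 libraries. This ratio was higher in each PRMT1 library than in any control. Against KRT18, a keratin of simple epithelia, VIM was at a ratio of 7.37 ± 0.67 in the controls and 5.56 ± 0.89 in the PRMT1 libraries (SD, n = 3 each).

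**Figure D2:**
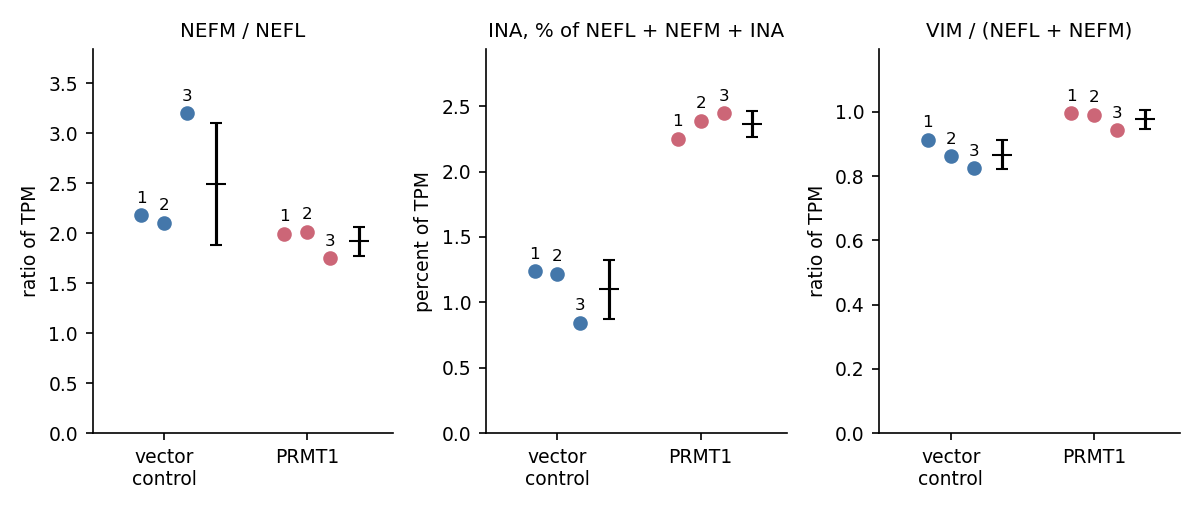
Ratio of NEFM to NEFL in TPM (left), INA as a percent of the summed TPM of NEFL, NEFM and INA (middle) and ratio of VIM to the sum of NEFL and NEFM in TPM (right), with 1 numbered point per library and the mean with SD (n = 3) beside each group. The share of INA lies between 0.842 and 1.24% in the controls and between 2.25 and 2.45% with PRMT1, and control 3 stands apart at 3.20 in the first ratio.

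Among the microtubule genes only STMN2 was at a testable level. STMN2, at chr8:79610814-79666175 on the plus strand, stood at 9.47, 10.9 and 10.2 TPM in the controls, whereas the PRMT1 libraries held 6.86, 8.08 and 6.38 TPM. All PRMT1 libraries were below all controls. The mean fell by 30.1%, from 10.2 ± 0.70 to 7.11 ± 0.87 TPM (SD, n = 3 each), which is -0.47 on the log2 scale (SE 0.12; adjusted p = 0.0139, limma), from 434 and 315 reads. Without PRMT1 library 1 the change was -0.45 and the adjusted p 0.0513, the highest over the alternatives, whose lowest was 0.0004. The ratio of STMN2 to STMN1, the widely expressed stathmin, went from 0.0593 ± 0.0056 to 0.0477 ± 0.0025 (SD, n = 3 each).

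DCX, at chrX:111293779-111412429 on the minus strand, was listed at 0.376, 0.345 and 0.167 TPM for the controls, and for the PRMT1 libraries at 0.255, 0.152 and 0.086 TPM. These rest on 24, 21 and 10 reads and on 17, 10 and 5 reads, and the groups overlapped. MAP2, at chr2:209424058-209734118 on the plus strand, was listed at 0.055, 0.131 and 0 TPM and at 0.106, 0.054 and 0.046 TPM, which stands for 4, 9 and 0 reads and for 8, 4 and 3 reads. Neither gene entered the test, and for neither was a difference detectable at this depth.

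NCAM1 and GAP43, the adhesion and growth cone genes, did not pass the test. NCAM1, at chr11:112961247-113278436 on the plus strand, stood at 16.7, 17.1 and 11.1 TPM in the controls, whereas the PRMT1 libraries held 13.7, 15.7 and 14.3 TPM. The PRMT1 libraries lay within the range of the controls, which control 3 widened at its lower end. The difference was -0.013 on the log2 scale (SE 0.16; adjusted p = 0.954, limma), with 3454 and 3470 reads. Without control 3 and PRMT1 library 2, NCAM1 was lower and past the threshold (-0.25, adjusted p = 0.0269; 0.0078 to 0.998 over all alternatives). With only 1 library left out, whichever it was, NCAM1 did not pass.

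GAP43, at chr3:115623324-115721490 on the plus strand, stood at 4.29, 2.81 and 5.23 TPM in the controls, whereas the PRMT1 libraries held 4.32, 4.01 and 5.38 TPM. The groups overlapped, with control 2 the lowest library. The difference was 0.15 on the log2 scale (SE 0.20; adjusted p = 0.572, limma), from 155 and 177 reads, and -0.051 (adjusted p = 0.831; 0.168 to 0.885 over all alternatives) without control 2.

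Of the 7 tested genes, 4 were called lower (NEFM, VIM, STMN2 and NEFL), where 8.64% of all tested genes were, and 1 was called higher (INA), where 40.3% were. In either direction 5 of 7 were called, against 49% of all tested genes, and 5 of 7 had groups that did not overlap, against 61.4%. Without overlap were the same 4 lower genes and 1 higher gene, where 11.6% of all tested genes were lower without overlap and 49.8% higher. The median log2 fold change of the 7 was -0.41, against 0.30 over all tested genes. Fold changes in these data moved with the level of a gene. Among the 10% of genes with the highest mean, which hold VIM, NEFM and NEFL, the median was -0.12, with 33.9% called lower and 14.5% called higher. Among the 10% that hold STMN2, the median was 0.47, with 4.04% called lower and 53.6% higher. Set against the median of the 10% of genes of its level class, the log2 fold change differed by -0.29 for NEFL, -0.37 for VIM, -0.65 for NEFM and -0.93 for STMN2, and by 0.017 for INA.

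**Figure D3:**
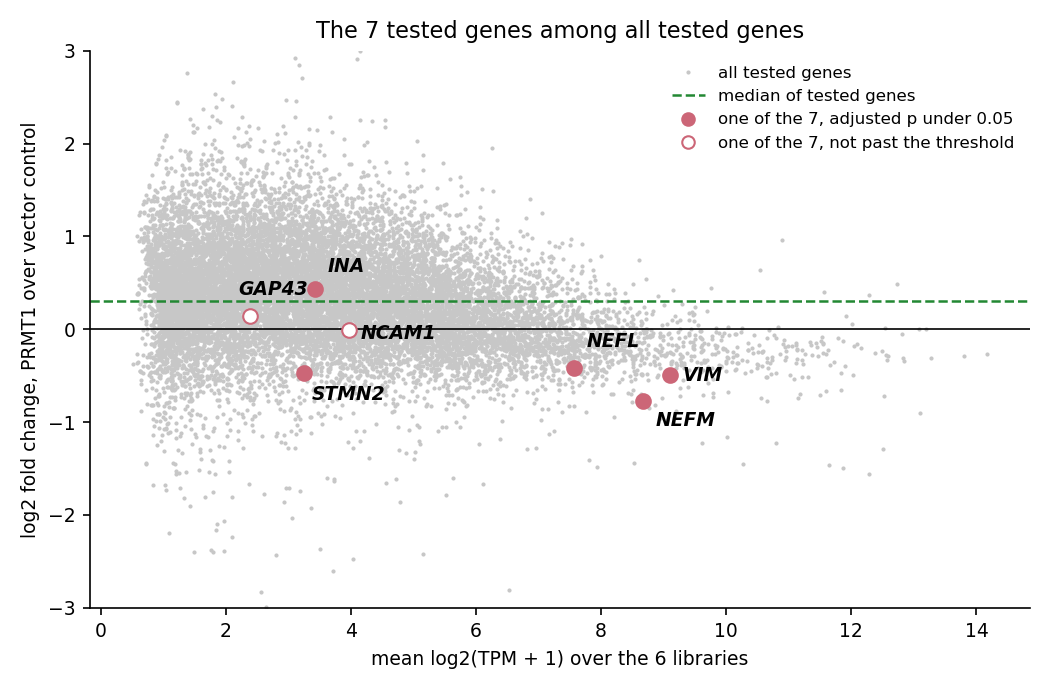
Log2 fold change, PRMT1 over vector control (vertical axis), against mean log2(TPM + 1) over the 6 libraries (horizontal axis) for all 15341 tested genes (grey), with the 7 tested genes named, filled where the adjusted p was under 0.05; the dashed line is the median of all tested genes, 0.30, and 14 genes beyond 3 in either direction are outside the axis. NEFM (-0.77), VIM (-0.49), NEFL (-0.41) and STMN2 (-0.47) lie below most of the genes around them and INA (0.43) lies near the dashed line.

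The direction or the call of INA, NCAM1 and GAP43 depended on how the libraries were scaled, and those of the other 4 did not under the scalings tried. Median-of-ratios scaling, which sets the median gene equal between libraries, brought the median of all tested genes to 0.0056 and called 23.5% of them higher and 24.1% lower. On that scale limma called 0 of the 7 genes higher, also 0 at an unadjusted p under 0.05, and 5 lower: NEFM (-1.12), VIM (-0.85), STMN2 (-0.79), NEFL (-0.77) and NCAM1 (-0.35, adjusted p = 0.0497). INA was at 0.11 (adjusted p = 0.375) and GAP43 at -0.14 (adjusted p = 0.633). Quantile normalization also gave 0 higher (0 unadjusted) and 5 lower with limma, where it called 20.3% of all tested genes higher and 19.4% lower, with INA at -0.0042, NCAM1 at -0.40, STMN2 at -0.91 and VIM at -0.25. With PRMT1 removed and the other genes rescaled, 1 was higher and 4 were lower, where 49.2% and 5.74% of all tested genes were, and NCAM1 was at 0.089.

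Fold changes also moved with base composition, taken as the G and C of the longest annotated transcript of a gene. The median went from 0.48 among the 10% of genes with the least to 0.036 among the 10% with the most. The tested genes of the group span 42.9% (STMN2) to 54.0% (NEFM), around the median of 49.0% of all tested genes, and the medians of their classes were 0.23 to 0.41. Centred within 10 classes of GC content, limma called 0 of the 7 higher (0 unadjusted) and 5 lower, where 17.7% of all genes with a GC value were higher and 32.7% lower, and INA was at 0.0088 (adjusted p = 0.939). The part of level, base composition and scale in these differences beyond the values given was not tested.

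**Figure D4:**
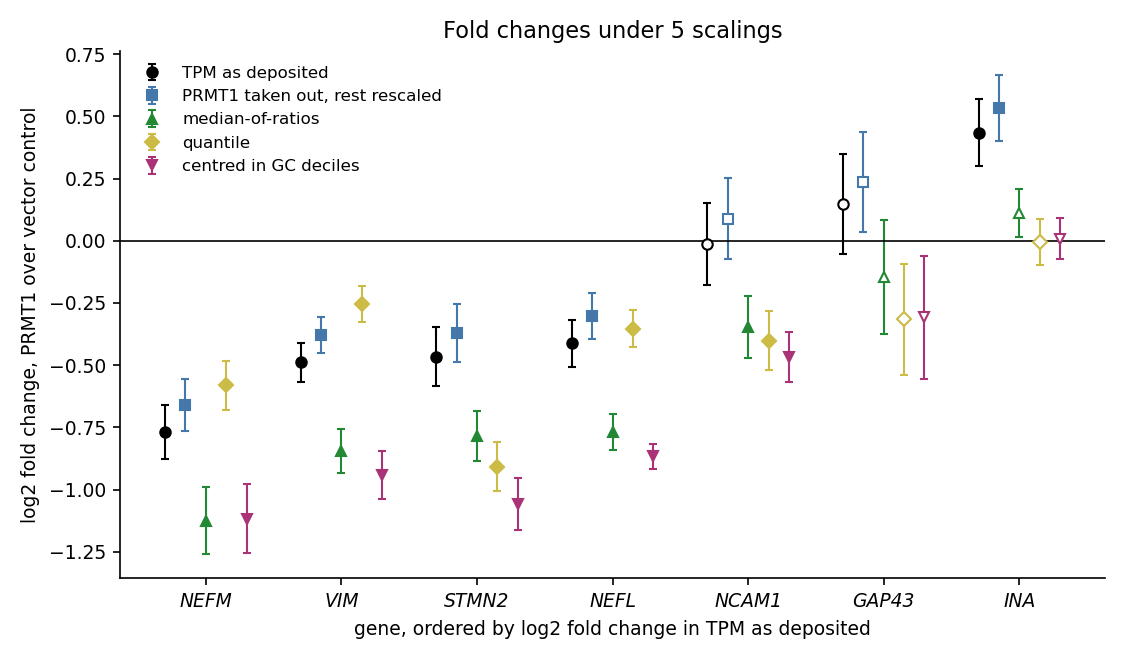
Log2 fold change, PRMT1 over vector control, of the 7 tested genes (horizontal axis) under 5 scalings, with bars of 1 SE from limma and filled symbols where the adjusted p was under 0.05. NEFM, VIM, STMN2 and NEFL are below 0 and filled under each scaling, NCAM1 is filled under 3 of them, and INA is filled in TPM as deposited and with PRMT1 taken out.

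The neurofilament genes have few exons. NEFL, NEFM and NEFH each have 4 separate exon blocks in GENCODE 29 and INA has 3, where VIM has 9, as has the median tested gene, and NCAM1 has 31. Exonic lengths of 4329 bases for NEFL and 4381 for NEFM were close to the median of 4203.5. Of genes that overlap the 10, those above 0 in any library were AF106564.1 opposite NEFM, AP000802.1 opposite NCAM1, VIM-AS1 and AL133415.1 opposite VIM, and AC092468.1 within GAP43 on the same strand. AF106564.1 stood at 15 to 18 reads in the controls, against 15 to 41 in the PRMT1 libraries, and VIM-AS1 at 2.08 to 3.71 and 1.32 to 3.43 TPM. AP000802.1 was at 0.55 to 1.21 TPM over all libraries, AL133415.1 at 0 to 3 reads, and AC092468.1 at 5 reads and 1 read in 2 PRMT1 libraries and at 0 elsewhere. No strand setting is stated, so reads of opposite genes cannot be told apart. The part of overlapping genes in the values of NEFM, VIM, NCAM1 and GAP43 was not tested.

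The genes whose profile over the 6 libraries was most like that of a filament gene were sought by the distance between log2 values centred on each gene's control mean, among 14114 genes with a symbol. Nearest to VIM were VDAC1, a channel of the outer mitochondrial membrane (0.063), C12orf75 (0.069) and the nucleophosmin pseudogene NPM1P27 (0.075), whose reads may belong in part to its parent gene. Nearest to NEFL were SLCO5A1 (0.063), the small GTPase RND2 (0.064) and the non-muscle myosin heavy chain MYH9 (0.078). NEFM had no gene as near, with KRTAP19-1 (0.162), RGS2 (0.172) and TAX1BP3 (0.172) the closest. These distances are descriptions over 6 libraries that share scale and depth.

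The counts of the related gene lists that follow are to be read against all tested genes, of which 40.3% were called higher and 8.64% lower in TPM as deposited, with a median log2 fold change of 0.30, and 23.5% higher and 24.1% lower after median-of-ratios scaling. Of 14 tested genes in a list of other intermediate filament proteins and their linkers, 2 (14.3%) were called higher and 0 lower by limma. At an unadjusted p under 0.05 the counts were 3 and 0, and the median was 0.052. The linker genes DST, PLEC and MACF1 stood at log2 fold changes of 0.14, 0.065 and 0.19, none past the threshold. A count of 0 lower among 14 is near that background. After the scaling limma called 0 higher (0 unadjusted) and 6 lower. LMNB1, the lamin B1 of the nuclear envelope, rose from 109 ± 4.66 to 159 ± 16.2 TPM (SD, n = 3 each; log2 fold change 0.53, limma adjusted p = 0.0022), a call lost after that scaling (0.18, adjusted p = 0.134) and after GC centring (adjusted p = 0.384). SYNM, synemin, was the other gene called higher, named after its values were seen.

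Of 24 tested microtubule-associated proteins, limma called 6 (25.0%, against 40.3% of all tested genes) higher and 0 (against 8.64%) lower (8 and 1 at an unadjusted p under 0.05; median 0.15). After median-of-ratios scaling it called 2 and 6, against 23.5% and 24.1%. PAFAH1B1, the dynein regulator known as LIS1, rose from 7.28 ± 0.98 to 21.6 ± 2.21 TPM (SD, n = 3 each; log2 fold change 1.45, limma adjusted p = 0.0002). CAMSAP3, which binds microtubule minus ends, rose from 12.2 to 22.5 TPM (0.83, limma adjusted p = 0.0005). EML1 rose by 0.56 (limma adjusted p = 0.0147), a call lost under median-of-ratios, quantile and GC settings. Of 12 tested growth cone proteins, limma called 1 (8.33%) higher and 3 (25.0%) lower (median -0.0013), against the same 40.3% and 8.64%, and 0 (0 unadjusted) and 6 after scaling. FSCN1, the actin-bundling fascin, fell from 474 ± 0.53 to 340 ± 12.2 TPM (SD, n = 3 each; -0.48, limma adjusted p = 0.0006), and MARCKSL1, an actin-binding protein of the same family as MARCKS, from 1110 ± 33.2 to 846 ± 52.4 TPM (-0.39, limma adjusted p = 0.0022), the latter call lost under quantile normalization (adjusted p = 0.112). CALM3, which encodes the calcium sensor calmodulin, fell by 0.29 on the log2 scale (limma adjusted p = 0.0287), a call lost under 8 alternatives. Of 16 genes in the neural adhesion list 9 were tested, and limma called 0 in either direction, against 40.3% and 8.64% of all tested genes. The median was 0.14, and at an unadjusted p under 0.05 the counts were 1 higher and 0 lower. That 1 gene was ST8SIA4 (0.48, limma unadjusted p = 0.041), named after its values were seen, which encodes an enzyme and not an adhesion molecule. After scaling limma called 0 (0 unadjusted).

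Other neuronal markers did not move as 1 group. Of 22 listed, 13 were tested and 9 were under the required level, 2 of those at 0 in every library (SLC17A6 and THY1). Of the 13, 6 (46.2%) were called higher and 2 (15.4%) lower (median 0.26), near the 40.3% and 8.64% of all tested genes. After median-of-ratios scaling 2 were higher and 5 lower, against 23.5% and 24.1%. STX1A, a syntaxin of synaptic vesicle release, rose from 2.49 ± 0.52 to 12.3 ± 1.48 TPM (SD, n = 3 each; log2 fold change 1.94, limma adjusted p = 0.0001). SYT1, the calcium sensor synaptotagmin, rose from 2.65 to 5.01 TPM (0.72, limma adjusted p = 0.0057; lost under quantile and GC settings), and the RNA-binding protein gene ELAVL2 by 0.49 (limma adjusted p = 0.0453; lost or of the other sign under 11 alternatives). ENO2, the neuronal enolase, fell from 69.1 ± 4.85 to 52.5 ± 0.96 TPM (SD, n = 3 each; -0.39, limma adjusted p = 0.0052). UCHL1, a ubiquitin hydrolase abundant in neurons, fell from 368 ± 5.74 to 313 ± 11.3 TPM (SD, n = 3 each; -0.23, limma adjusted p = 0.0122; lost under 4 alternatives). Other genes typical of neurons, named after their values were seen, stood at low or moderate levels: RBFOX3, the antigen NeuN, at means of 2.18 and 2.23 TPM in controls and PRMT1 libraries, TUBB3 at 1.98 and 2.26 TPM, SYN1, synapsin, at 1.56 and 2.21 TPM, MAPT, tau, at 10.3 and 10.4 TPM, and SYP, synaptophysin, at 13.6 ± 0.51 and 16.5 ± 0.37 TPM (SD, n = 3 each). SYP was called higher (log2 fold change 0.26, limma adjusted p = 0.0393), a call that 9 of the 18 alternatives ended, with -0.079 after median-of-ratios scaling and -0.13 after quantile normalization. SNAP25, a partner of STX1A in the release machinery, was at 0 reads in each control and at 15, 8 and 10 reads in the PRMT1 libraries, under 1 TPM throughout.

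Among 20 tested repressors of neuronal genes and proneural factors, limma called 10 higher and 0 lower (11 and 1 at an unadjusted p under 0.05; median 0.38), which is 50% higher against 40.3% of all tested genes and 0 lower against 8.64%. After median-of-ratios scaling it called 4 and 4, against 23.5% and 24.1%, so the list stood near the background. The corepressor genes SIN3A (from 11.8 to 24.2 TPM; log2 fold change 0.98, limma adjusted p = 0.0009), RCOR3 (from 3.50 to 7.63 TPM; 0.93, limma adjusted p = 0.0022) and RCOR1 (from 8.16 to 15.4 TPM; 0.84, limma adjusted p = 0.0021) rose under every alternative tried. REST, the repressor of neuronal genes, was named after its values were seen. The controls held 3.27, 3.18 and 3.78 TPM and the PRMT1 libraries 6.13, 7.22 and 5.91 TPM (log2 fold change 0.75, SE 0.13, limma adjusted p = 0.0026). Its call was lost under quantile normalization (0.29, adjusted p = 0.0891) and GC centring (0.095, adjusted p = 0.537). The other genes of the list called higher, named after their values were seen, were RCOR2, KDM1A, SOX2, POU3F2, PAX6 and ISL1. Not past the threshold were HDAC1, HDAC2, EHMT2, CTDSP1, CTDSP2, CTDSPL, NEUROG2, INSM1, MYT1 and SOX4.

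Kinases and phosphatases listed as acting on filament proteins were called in both directions, 5 of 16 (31.2%) higher and 3 (18.8%) lower (median 0.094). Of all tested genes, 40.3% and 8.64% were called. After median-of-ratios scaling the list had 2 and 7, against 23.5% and 24.1% of all tested genes. CDK5, a main kinase of the NEFM and NEFH tails, fell from 42.0 to 31.2 TPM (log2 fold change -0.41, limma adjusted p = 0.0065), and MAPK3, which encodes ERK1, from 183 to 135 TPM (-0.44, limma adjusted p = 0.0012); both kept the call under every alternative. PPP2R1A, the scaffold subunit of phosphatase 2A, fell by 0.27 on the log2 scale (limma adjusted p = 0.0224; lost under 7 alternatives). ROCK2 (0.84, limma adjusted p = 0.0075) and PPP2CA, a catalytic subunit of phosphatase 2A (0.57, limma adjusted p = 0.0022), rose. ROCK2 and PPP2CA each lost the call after GC centring, where PPP2CA was at -0.079, ROCK2 also under quantile normalization and PPP2CA also after median-of-ratios scaling.

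**Figure D5:**
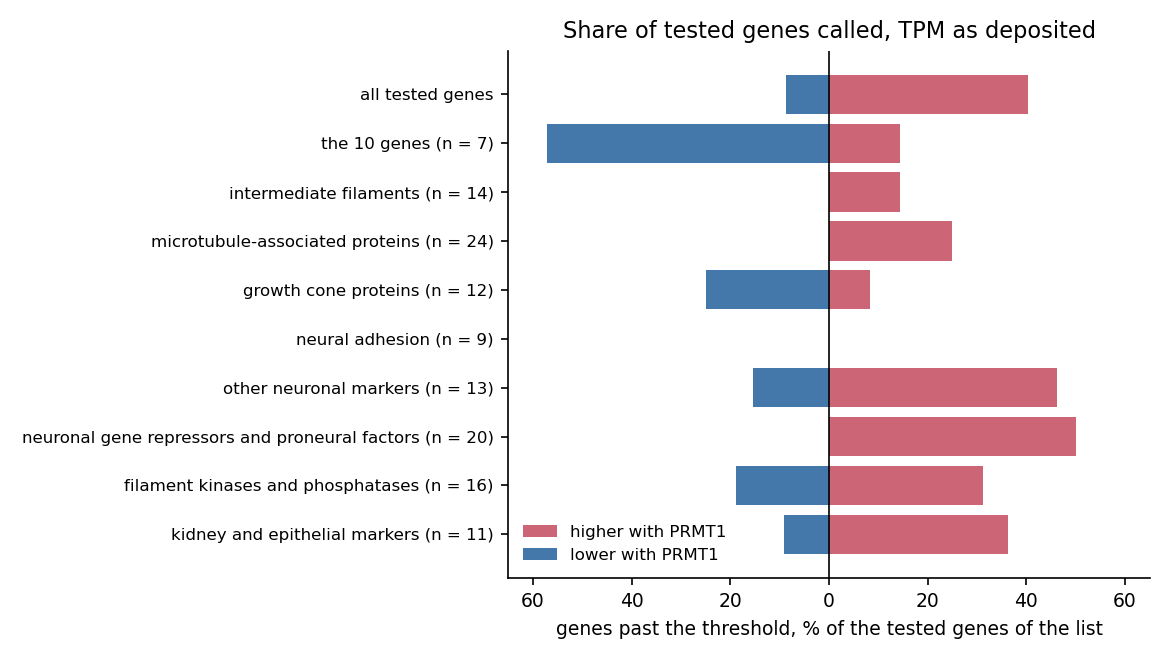
Percent of tested genes called higher (right of 0) or lower (left of 0) by limma in TPM as deposited, for all tested genes, the 10 genes and each gene list with at least 9 tested genes (vertical axis). All tested genes stand at 40.3% higher and 8.64% lower; the 10 genes are the bar with the longest lower side, at 4 of 7.

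Markers of other cell types were checked beside these results. Of 20 kidney and epithelial markers, 11 were tested, with 4 (36.4%) called higher and 1 (9.09%) lower (median 0.074), near the 40.3% and 8.64% of all tested genes, and 4 and 4 after scaling; their levels summed to 277 to 301 TPM in the controls, against 297 to 310 TPM in the PRMT1 libraries. KRT18 (89.1 and 84.4 TPM) and KRT8 (79.8 and 78.8 TPM), the most abundant of them, were not past the threshold (limma adjusted p = 0.554 and 0.859); after median-of-ratios scaling both were lower (-0.43 and -0.37, adjusted p = 0.0418 and 0.0292). The kidney progenitor factors SALL1 (0.98, limma adjusted p = 0.0011) and EYA1 (0.66, limma adjusted p = 0.0108) rose, and SIX2 fell by 0.28 (limma adjusted p = 0.0143); EYA1 and SIX2 each lost the call under 2 alternatives. Of 12 glial markers 2 were tested: OLIG2 rose from 5.01 to 11.7 TPM (1.08, limma adjusted p = 0.0003) and OLIG1 was at 2.00 and 2.32 TPM, with summed levels of 7.98 to 10.0 and 15.5 to 16.7 TPM, GFAP under 1 TPM and SOX10 at 0. Of 11 adrenal and sympathetic markers 2 were tested and both were called higher, GATA3 (from 7.11 to 13.3 TPM; 0.81, limma adjusted p = 0.0010; lost under quantile normalization) and HAND2 (0.55, limma adjusted p = 0.0275; lost under 9 alternatives). The list summed to 8.75 to 8.96 and 15.2 to 17.8 TPM, with PHOX2A, CYP11A1 and CYP21A2 at 0. Of 13 fibroblast, endothelial and blood markers only COL1A1 was tested. It fell from 15.2 to 9.83 TPM (-0.57, limma adjusted p = 0.0109), with the list at 12.7 to 18.0 and 10.3 to 11.7 TPM, COL3A1 at 0.55 and 0.75 TPM and CD3E at 0. The part of these markers in the changes of the filament genes was not tested.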

How the data were processed

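RNA was measured in 6 HEK293T libraries, 3 vector control and 3 PRMT1, as grouped in the labels. The deposited table gives TPM per Ensembl gene; for how the authors computed TPM, with which annotation and strand setting, nothing is given in the sources used here. Per the submitters' processing notes, GRCh38, featureCounts, Subread 1.5.2, STAR 2.5.2b and Trimmomatic 0.36 were used. Coordinates and exonic lengths came from GENCODE 29. Of 57500 identifiers 40907 had a symbol. TPM times exonic length came out as a whole multiple of 1 library-specific step (95.6 to 96.0% of values under 50 reads within 0.05 of a read), which gave the reads behind each value; 3 reads at 1 kb are 0.459 to 0.526 TPM, which covers counting error alone.

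Tested were genes at 1 TPM or more in 3 libraries, by limma 3.58.1 (R 4.3.3, variance trend) on log2(TPM + 1). A check on simulated data held no shift with library, level or base composition, so it does not cover the shifts seen here. Fold changes on this scale understate those of low genes. The 10 genes, 11 further lists and tests were chosen with earlier results of these data known. Named are the 10 genes, PRMT1, up to 3 rising and 3 falling genes of each list past the threshold that average 5 TPM or more in the higher group, the 2 most abundant genes of each marker list, overlapping genes above 0 and the 3 nearest profiles of the 3 most abundant genes. Some genes that this rule names are not reported here. The 18 alternatives were other pseudocounts (0.1 and 5 TPM), filters and scalings, GC centring, no trend, array weights, a replicate block and libraries left out.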

Additional observations from a re-analysis of the deposited data

How the results depend on the processing

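Of the comparisons of the 10 genes with test values, 104 kept direction and side of the threshold over the 18 alternatives, 7 lost the call, 5 gained one and 9 changed sign. NEFM, NEFL and VIM kept their calls. The cause of the changes below was not tested.

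Genes called higher, 6190 in TPM as deposited, numbered 3604 with median-of-ratios scaling, 3109 with quantile normalization and 2697 with GC centring. Genes called lower, 1325, numbered 3692, 2979 and 4994 under these, 880 with PRMT1 taken out, 2838 with array weights and 2115 without control 3 and PRMT1 library 2. With 1 library left out they were 5082 to 5634 higher and 935 to 1520 lower. Of the 10 genes, 0 were called higher by limma without a filter and under median-of-ratios, quantile and GC settings, and 0 to 1 with 1 library left out (0 without control 3, PRMT1 library 2 or PRMT1 library 3).

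INA had an adjusted p of 0.0645 at 0.43 without a filter and was at 0.11 (median-of-ratios), -0.0042 (quantile) and 0.0088 (GC). With 1 library left out INA was at 0.32 to 0.50, STMN2 at -0.55 to -0.40, NCAM1 at -0.20 to 0.088 and GAP43 at -0.051 to 0.30. NCAM1 was at -0.35 (median-of-ratios), -0.40 (quantile), -0.47 (GC), -0.23 (array weights), -0.25 (without control 3 and PRMT1 library 2) and 0.089 (PRMT1 taken out). GAP43 was at -0.14, -0.32 and -0.31 under median-of-ratios, quantile and GC settings, and under the filter at 5 TPM it had no value. Signs also changed for ELAVL2 (-0.086, GC), PPP2CA (-0.079, GC), SYP (-0.079 with median-of-ratios, -0.13 with quantile) and OLIG1 (-0.073, -0.23 and -0.014 under the 3 settings). KRT18 was at 0.035 with PRMT1 taken out, 0.061 with array weights, 0.066 without control 3 and PRMT1 library 2 and -0.13 to 0.015 with 1 library left out. KRT8 was at 0.090, 0.023, 0.049 and -0.056 to 0.020 in the same order.

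Counts called in the gene lists moved most with scaling. Of all tested genes, 23.5% were called higher and 24.1% lower with median-of-ratios scaling, 20.3% and 19.4% with quantile normalization, and 17.7% and 32.7% with GC centring. Tested in TPM as deposited were 14, 24, 12, 9, 13, 20, 16 and 11 genes of the lists, in the order below. For glial and adrenal markers 2 each were tested. Over all alternatives 2697 to 7819 of all genes were called higher and 880 to 4994 lower. Higher and lower counts were 0 and 6 (median-of-ratios), 1 and 4 (quantile) and 0 and 6 (GC) for intermediate filaments, 2 and 6, 2 and 8 and 2 and 11 for microtubule-associated proteins, 0 and 6, 1 and 4 and 0 and 9 for growth cone proteins, 0 and 0, 0 and 1 and 0 and 6 for neural adhesion, 2 and 5, 1 and 4 and 1 and 5 for other neuronal markers, 4 and 4, 5 and 2 and 3 and 6 for repressors and proneural factors, 2 and 7, 4 and 3 and 0 and 10 for kinases and phosphatases, 4 and 4, 3 and 3 and 3 and 4 for kidney markers, and 1, 0 and 1 higher for adrenal markers. Over all alternatives the counts ran, higher and lower, from 0 to 3 and 0 to 6 for intermediate filaments, 2 to 10 and 0 to 11 for microtubule-associated proteins, 0 to 2 and 2 to 9 for growth cone proteins, 0 to 2 and 0 to 6 for neural adhesion, 1 to 6 and 1 to 5 for other neuronal markers, 3 to 12 and 0 to 6 for repressors and proneural factors, 0 to 7 and 2 to 10 for kinases and phosphatases, 2 to 4 and 0 to 4 for kidney markers, and 1 to 2 and 0 to 2 higher for glial and adrenal markers.

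The labels do not say whether the replicate numbers pair the libraries. Deviations of libraries with the same number correlated at -0.033, 0.059 and 0.020, and not every library correlated best with its own number. With 3 libraries per group these correlations cannot exclude a pairing. With the replicate number as a block, 6275 genes were called higher and 1314 lower, and the 10 genes kept their counts. Depth limits NEFH, MAP2 and DCX, which rest on 0 to 24 reads per library.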
